A study of Mus musculus with 42 samples.

Results

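The Schlafen family genes of mouse spleen were followed from 3 hours to 14 days after an injection of CpG DNA. The group holds 7 genes, Slfn1, Slfn2, Slfn3, Slfn4, Slfn5, Slfn8 and Slfn9, which were chosen by their symbols and with their log2 ratios in all 10 groups known. They were read by 9 of the 30601 features of the array and make up 7 of the 15277 genes that had a feature with their symbol alone. Slfn9 had 3 features, whose mean was used, and each other member had 1.

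Spleens came from female BALB/c mice, and the labels give no age. Untreated mice (n = 6 arrays) were set beside mice injected intraperitoneally with 400 µg of CpG ODN 1555 and 1466, mixed in equal molar amounts, and killed after 3, 9, 24 or 72 hours or after 5, 7, 9 or 14 days (n = 4 arrays at each time). A further group received 400 µg of a mixture of the control ODN 1612 and 1471 and was killed after 3 hours (n = 4 arrays). ODN are short single strands of synthetic DNA, and those with CpG motifs are ligands of the receptor TLR9. The untreated mice received no injection, and control ODN mice were examined only at 3 hours, so no injected control stands beside the later times. Each array compared Cy5-labelled cDNA of 1 spleen sample with Cy3-labelled cDNA of a common mouse reference RNA pooled from many tissues, and a value is the log2 ratio of spleen over reference. The study's design text states that the samples of a time point are independent biological replicates.

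The arrays lacked between 173 and 1740 features each, and Slfn2 had no value on control ODN replicate 4. The database numbers in the labels put the arrays into 10 runs of neighbouring numbers, which are not stated to be batches. Of the untreated arrays, 5 formed a run of their own and 1 shared a run with 2 of the CpG 3 h arrays. Control ODN, CpG 72 h, 7 days and 14 days formed 1 run of 16 arrays, so for these groups, and for 5 and 9 days, run and group cannot be told apart in a comparison with untreated spleen. Spleen genes were high in untreated samples (Cd79a of B cells 5.64 ± 0.55 and Hbb-b1 of red cells 6.83 ± 0.78, mean log2 ratio ± SD, n = 6). The mean of 8 pancreas acinar markers ran from 0.09 to 6.28 among the arrays, with the pancreas lying beside the spleen in the body. Its correlation with the members over the arrays ran from -0.02 for Slfn1 to 0.16 for Slfn8.

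Schlafen genes are a family of the vertebrate immune system that has expanded in rodents, and several of its members are interferon-stimulated genes. Type I interferon, made after TLR9 meets CpG DNA, acts through its receptor on a transcription factor complex that holds STAT2 and IRF9 and binds a promoter element called the ISRE. The mouse proteins are grouped by length into short (Slfn1 and Slfn2), intermediate (Slfn3 and Slfn4) and long forms (Slfn5, Slfn8 and Slfn9), and only the long forms carry a helicase-like region. Slfn1 slows the growth of T cells when it is forced on, Slfn2 is needed for the quiescence of T cells and monocytes, and Slfn4 is an interferon-induced gene of myeloid cells.

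In the reference annotation (GRCm38.p6) the members lie side by side on chromosome 11, in the order Slfn5, Slfn9, Slfn8, Slfn10-ps (a pseudogene), Slfn2, Slfn1, Slfn4, Slfn3 and Slfn14. Promoter sequences were read from RefSeq (GRCm38.p6, 250 bases before to 50 after the start site), and all 7 members matched. They were searched on both strands for the ISRE core GAAANNGAA, the STAT element GAS TTCNNNGAA and the NF-kB element kappaB GGGANTTNC. The ISRE core was in Slfn5, with 2 matches, in Slfn8 and in Slfn9. Of all 32851 promoters in the table, 8.56% held it, 8.3% held the GAS letters and 4.26% the kappaB letters. The GAS letters were in 0 members, and the kappaB letters were in Slfn2 alone.

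The stretches around these matches are shown because they set the members with a match beside those without, among them the members with the largest differences. Each is written 5′ to 3′ on the gene's strand, and capitals mark the ISRE core in Slfn5, Slfn8 and Slfn9 and the kappaB letters in Slfn2. For Slfn1, Slfn3 and Slfn4, in which no motif matched, the bases from -64 to -16 before the start site stand for comparison.
Slfn5, chr11:82951927-82951998, plus strand: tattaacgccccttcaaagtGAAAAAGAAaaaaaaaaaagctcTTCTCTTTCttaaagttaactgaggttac
Slfn9, chr11:82991846-82991894, minus strand: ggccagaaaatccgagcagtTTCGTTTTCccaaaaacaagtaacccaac
Slfn8, chr11:83020829-83020877, minus strand: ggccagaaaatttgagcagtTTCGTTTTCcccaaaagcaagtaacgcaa
Slfn2, chr11:83065060-83065108, plus strand: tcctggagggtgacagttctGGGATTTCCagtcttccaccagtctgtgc
Slfn1, chr11:83116756-83116804, plus strand: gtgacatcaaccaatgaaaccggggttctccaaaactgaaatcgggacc
Slfn4, chr11:83175122-83175170, plus strand: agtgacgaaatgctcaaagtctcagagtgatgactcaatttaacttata
Slfn3, chr11:83191266-83191314, plus strand: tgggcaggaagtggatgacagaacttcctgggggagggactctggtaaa
The match in Slfn9 began at -44 and that in Slfn8 at -47 from the start site, or at -135 from a further start site of Slfn8. The Slfn8 and Slfn9 promoters were alike over their length, with 80.8% of aligned columns identical, while every other pair of members lay between 46.8% and 53%. A match describes the letters of a window and is not a measured binding site, and no match says only that these letters are not there.

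**Figure D1:**
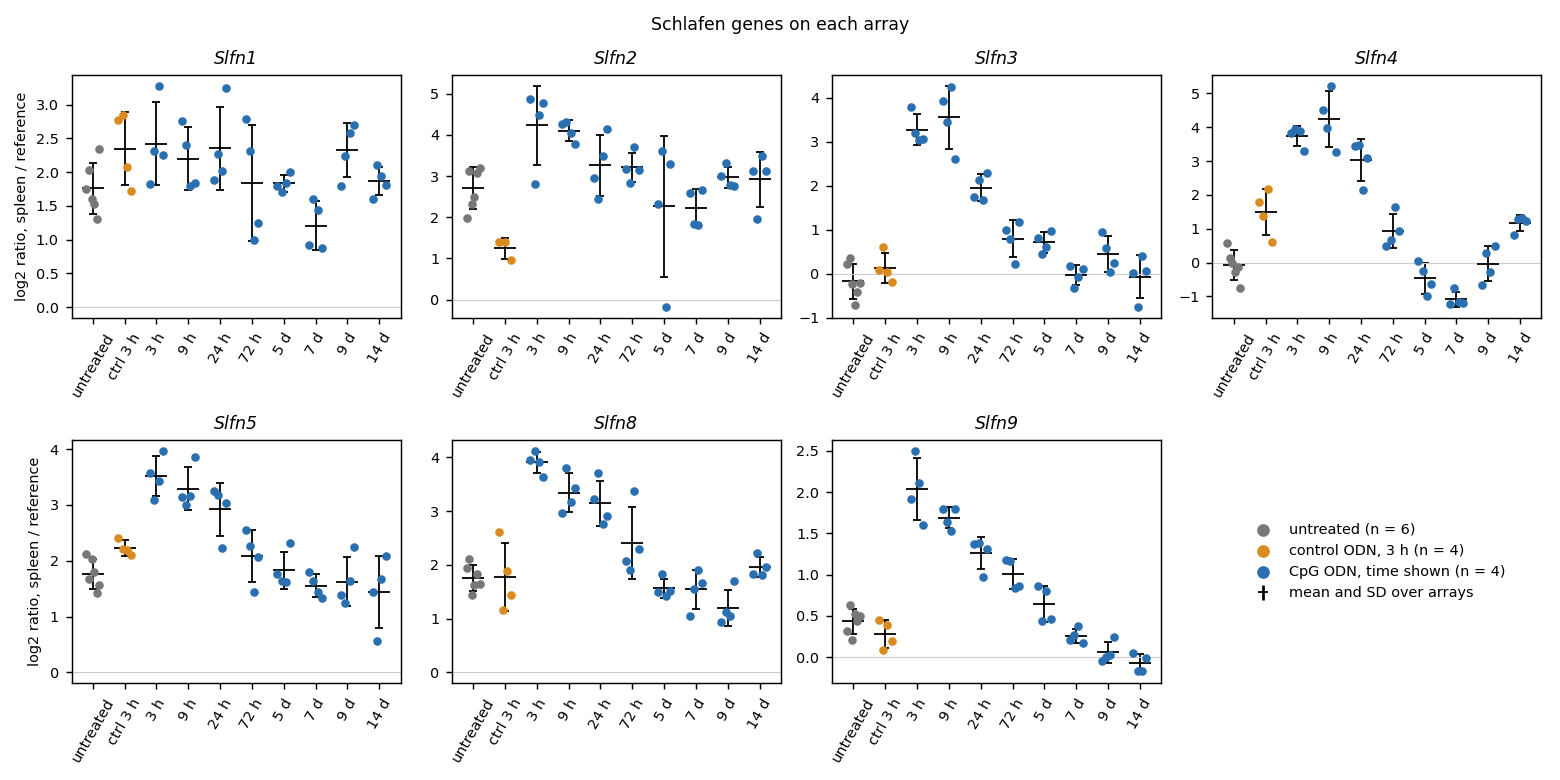
Log2 ratio of spleen over reference (y axis) for each Schlafen gene on each array, by group (x axis), with black marks for the mean and SD. Slfn3 and Slfn4 reached 4.25 and 5.23 on 1 array of CpG 9 h, against untreated maxima of 0.35 and 0.58. For Slfn1, every other group overlapped with untreated spleen.

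From 3 h to 24 h after CpG, every member had a mean above that of untreated spleen, though not every difference was called. Slfn3 and Slfn4, the intermediate forms, had the largest differences. Against untreated spleen, 6 of 7 members were called higher at 3 h (background 7.7% of genes), 6 at 9 h (5.07%) and 5 at 24 h (8.03%), where called means an adjusted p below 0.05 in limma over all genes. At 72 h, 3 members were called higher (8.94%), namely Slfn3, Slfn4 and Slfn9, and at 5 days only Slfn3 (17.5%). The 72 h call of Slfn4 was absent without untreated replicate 2 or replicate 3 of 72 h, and Slfn8 was called too without untreated replicate 1 or replicate 2 of 72 h. The 72 h call of Slfn4 was also absent without the 8 arrays that lacked over 1000 features (0.74), and that of Slfn9 with the median over its features (0.40). The median difference of the 7 members was 1.75 at 3 h, 1.52 at 9 h, 1.16 at 24 h, 0.58 at 72 h and 0.06 at 5 days on the log2 scale, while the median over all genes tested lay within 0.06 of 0 in every comparison. Since the members were selected on these values, the counts describe them and test nothing. All comparisons with untreated spleen share the same 6 control arrays. In whole spleen, a change in the number of cells of a type and a change in RNA per cell cannot be told apart.

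**Figure D2:**
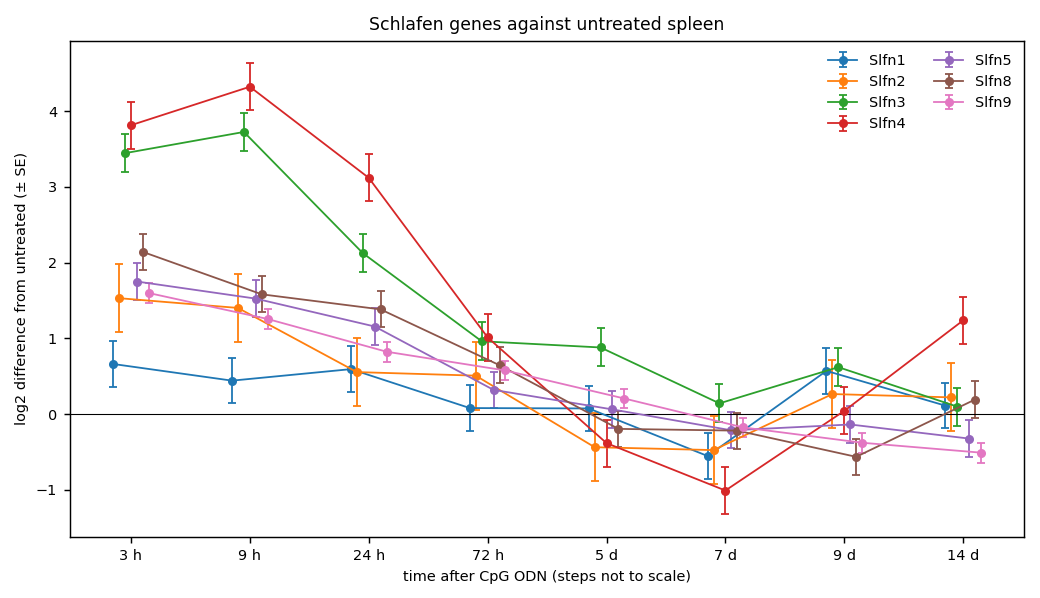
Log2 difference from untreated spleen (y axis, ± SE of the fit) for the 7 Schlafen genes at the 8 times after CpG (x axis, steps not to scale). Slfn4 went from 4.32 at 9 h to -1.01 at 7 days and 1.24 at 14 days, while Slfn9 went from 1.60 at 3 h to -0.51 at 14 days.

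Slfn4, the interferon-induced gene of myeloid cells, had the widest range of the family over the course. In untreated spleen its log2 ratio ran from -0.76 to 0.58 with a median of -0.07 (n = 6). The 4 arrays read 3.89, 3.31, 3.82 and 3.93 at 3 h (replicates 1 to 4), and 4.51, 3.98, 5.23 and 3.27 at 9 h. At 24 h they read 3.08, 3.45, 3.48 and 2.15. Every array of these 3 times was above every untreated array. The differences from untreated spleen were 3.81 ± 0.31 at 3 h, 4.32 ± 0.31 at 9 h and 3.12 ± 0.31 at 24 h (log2 ± SE), which are 14.1-fold, 20.0-fold and 8.68-fold.

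The later course of Slfn4 went below the untreated level and back above it. At 72 h the arrays read 0.50, 0.67, 1.65 and 0.93, and at 5 days -0.63, 0.04, -0.26 and -1.0. At 7 days they read -1.23, -0.75, -1.17 and -1.21, with 3 of them below all untreated arrays and replicate 2 at the lower end of the untreated range. At 9 days they lay between -0.65 and 0.49, within the untreated range, and at 14 days they read 0.81, 1.28, 1.31 and 1.24, all above it. The difference from untreated spleen was -1.01 ± 0.31 at 7 days, when Slfn4 was the 1 member called lower (background 6.89%), and 1.24 ± 0.31 at 14 days, when it was the 1 member called higher (2.77%). Both calls rested on single arrays: 0 members were called at 7 days without replicate 1, 3 or 4 of that group or without untreated replicate 4. At 14 days 0 members were called without replicate 2 or replicate 3 of that group. The 7 and 14 day arrays belong to the same run, and within it Slfn4 was lower at 7 days on every array, with a difference of -2.25 between the means of 4 and 4 arrays.

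Slfn3, the other intermediate form, was called higher from 3 h to 5 days. Untreated arrays ran from -0.71 to 0.35 with a median of -0.23. The 3 h arrays read 3.04, 3.07, 3.79 and 3.21, and the 9 h arrays 3.93, 3.45, 4.25 and 2.60. At 24 h they read 2.30, 1.74, 2.12 and 1.67, below all arrays of 9 h and above all untreated arrays. The differences from untreated spleen were 3.44 ± 0.25 at 3 h, 3.72 ± 0.25 at 9 h and 2.12 ± 0.25 at 24 h, which are 10.9-fold, 13.2-fold and 4.36-fold. At 72 h and 5 days Slfn3 was still higher, by 0.96 ± 0.25 and 0.88 ± 0.25. The 5 day arrays, from 0.45 to 0.97, were all above the untreated ones, while at 72 h replicate 3, at 0.21, lay within the untreated range. At 9 days the difference was 0.62 ± 0.25, not called, with arrays from 0.03 to 0.94 that overlapped with the untreated range. At 7 and 14 days the means were -0.03 ± 0.23 and -0.07 ± 0.49 (SD, n = 4), inside the untreated range.

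Slfn8 and Slfn9, the long forms with alike promoters, had their highest mean at 3 h, as did Slfn1, Slfn2 and Slfn5. Slfn8 read from 1.43 to 2.10 in untreated spleen, with a median of 1.74, and 3.92, 3.64, 3.95 and 4.12 at 3 h. At 9 h its arrays read 2.96, 3.81, 3.18 and 3.44, and at 24 h 2.91, 3.22, 3.70 and 2.76, all above untreated. Its differences were 2.14 ± 0.24, 1.58 ± 0.24 and 1.38 ± 0.24, and at 72 h, where it was not called, 0.65 ± 0.24. At 72 h replicate 3 read 3.38 and the others 1.90 to 2.29, so that group overlapped with untreated spleen. At 9 days its arrays read 1.12, 1.04, 0.94 and 1.70, and the difference was -0.57 ± 0.24, not called. Slfn8 was called lower at 9 days under quantile normalization (-0.84), scaling to a common median absolute deviation (-0.72), array weights (-0.58) and a fit of only these groups (-0.57).

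Slfn9 read from 0.20 to 0.63 in untreated spleen, with a median of 0.47. At 3 h its arrays read 2.12, 1.60, 1.92 and 2.50, at 9 h 1.80, 1.64, 1.53 and 1.79, and at 24 h 1.31, 1.37, 1.38 and 0.97. The 72 h arrays, at 1.18, 1.16, 0.84 and 0.87, were above the untreated range. The differences were 1.60 ± 0.13, 1.25 ± 0.13, 0.82 ± 0.13 and 0.58 ± 0.13 from 3 h to 72 h. Slfn9 then went below the untreated level, with arrays from -0.04 to 0.25 at 9 days and from -0.17 to 0.05 at 14 days, and all 14 day arrays were below all untreated arrays. It was the 1 member called lower at 9 days, by 0.38 ± 0.13 (background 5.12%), and the 1 called lower at 14 days, by 0.51 ± 0.13 (1.77%). The 9 day call was absent without untreated replicate 1, 2, 5 or 6 or without replicate 1, 2 or 3 of that group, and the 14 day call without untreated replicate 1 or replicate 2 or 3 of that group.

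The 3 features of Slfn9, numbered here 1 to 3 in the order of their identifiers, were all higher at 3 h and differed in size. At 3 h they were 1.49, 2.19 and 1.11 above untreated spleen (differences of mean log2 ratios, 4 against 6 arrays). At 24 h the differences were 0.87, 1.29 and 0.30, and feature 3, with arrays from 0.06 to 0.62, lay within or just above its untreated range of -0.51 to 0.58. At 9 days features 1 and 2 were 0.41 and 0.83 below untreated spleen and feature 3 was 0.10 above it. The probe sequences were not used here, so whether a feature also reads a near copy such as Slfn8 or Slfn10-ps was not tested.

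Slfn10-ps, a pseudogene lying between Slfn8 and Slfn2, had a feature of its own. It ran from 0.44 to 1.23 in untreated spleen and read 2.46, 2.56, 2.79 and 3.12 at 3 h, with a difference of 1.90 ± 0.21. It was also called higher at 9 h and 24 h, by 1.17 ± 0.21 and 1.08 ± 0.21. At 9 days it was called lower, by 0.84 ± 0.21, with all arrays (-0.33 to 0.25) below untreated. Slfnl1, a Schlafen-like gene on another chromosome, was not called at 3, 9 or 24 h, with differences of -0.30, 0.00 and -0.29 ± 0.19. It was called lower at 72 h and 5 days, by 0.61 ± 0.19 and 0.53 ± 0.19.

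**Figure D3:**
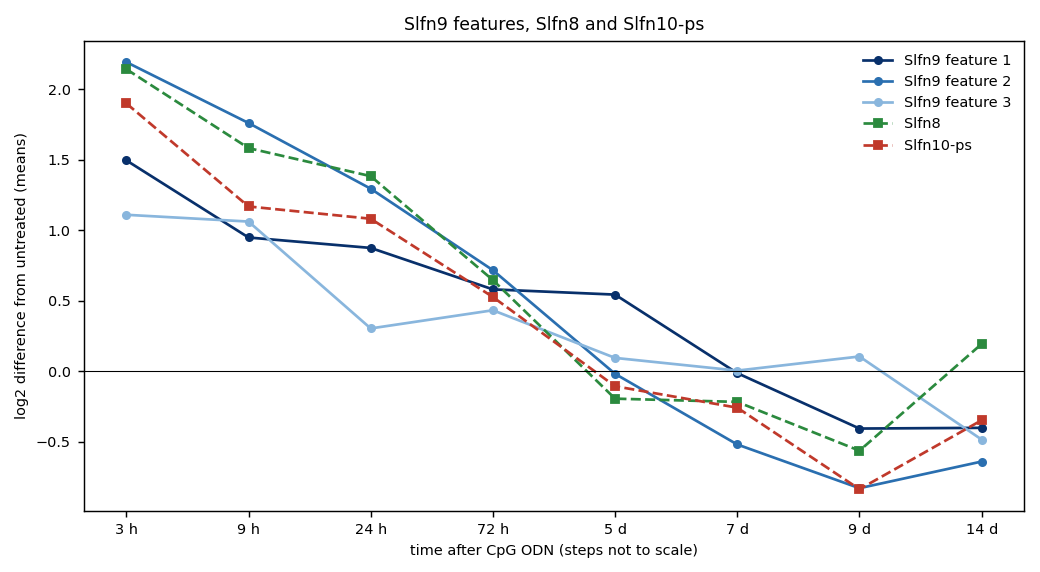
Difference of mean log2 ratio from untreated spleen (y axis) at the 8 times after CpG (x axis, steps not to scale) for the 3 features of Slfn9, for Slfn8 and for Slfn10-ps. At 3 h the lines start between 1.11 (Slfn9 feature 3) and 2.19 (feature 2).

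Slfn5, the remaining long form, was called higher at 3, 9 and 24 h. Untreated arrays ran from 1.42 to 2.11 with a median of 1.73. The 3 h arrays read 3.43, 3.97, 3.58 and 3.08, the 9 h arrays 3.13, 3.00, 3.16 and 3.86, and the 24 h arrays 3.04, 3.24, 3.18 and 2.22. All of these were above all untreated arrays, and the differences were 1.75 ± 0.24, 1.52 ± 0.24 and 1.16 ± 0.24. From 72 h to 14 days it was not called, with differences from 0.32 ± 0.24 at 72 h to -0.32 ± 0.24 at 14 days.

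Slfn2, the quiescence gene, was called higher at 3 h and 9 h. Untreated arrays ran from 1.98 to 3.20 with a median of 2.79. At 3 h they read 4.48, 4.77, 4.86 and 2.81, with replicate 4 inside the untreated range, and at 9 h 4.27, 4.32, 4.04 and 3.78, all above it. The differences were 1.53 ± 0.45 and 1.40 ± 0.45. The 3 h call was absent without replicate 1, 2 or 3 of that group, and the 9 h call was absent without untreated replicate 3, 4 or 5 or without any 1 of the 9 h arrays. Quantile normalization ended both calls (1.09 at 3 h and 1.08 at 9 h). The 9 h call was also absent under scaling to a common median absolute deviation (1.42) and with runs as a random block (1.39). At 5 days replicate 4 read -0.18 and the other arrays 2.33 to 3.61. At 24 h the difference was 0.55 ± 0.45, and it lay between -0.48 and 0.51 from 72 h to 14 days, with no call.

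Slfn1, the member named for slowing T cell growth, was called at 0 of the 8 times by limma, with an unadjusted p below 0.05 at 1 of them. With array weights, when calls over all genes rose too, it was called higher at 72 h (0.60, against 0.08 in the design used). Untreated arrays ran from 1.31 to 2.34 with a median of 1.67, and the groups of every time overlapped with them. The arrays read 3.28, 2.26, 1.82 and 2.32 at 3 h and 2.76, 2.41, 1.80 and 1.84 at 9 h. The differences were 0.66 ± 0.30 at 3 h, 0.44 ± 0.30 at 9 h, 0.59 ± 0.30 at 24 h and -0.55 ± 0.30 at 7 days. The lowest mean was at 7 days, with arrays from 0.87 to 1.60. These were all below the 14 day arrays of the same run, with a difference of -0.665.

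The order of the 10 group means differed between members. Slfn2, Slfn5, Slfn8 and Slfn9 were ordered 3 h, 9 h, 24 h from the top, and Slfn3 and Slfn4 had 9 h above 3 h. For each of these genes, arrays of 3 h and 9 h overlapped. The next group after 24 h was 72 h for Slfn2, Slfn3, Slfn8 and Slfn9, and control ODN for Slfn4 and Slfn5. Going down the order, neighbouring groups did not overlap between 3 h and 24 h and between 24 h and 72 h for Slfn3, between 72 h and 9 days for Slfn4, between 9 h and 24 h for Slfn9, and between 7 days and control ODN for Slfn2. All other neighbours overlapped.

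Comparisons of successive times describe the decline. From 3 h to 9 h, 0 of 7 members were called in either direction (background 1.44%), and 2 members had an unadjusted limma p below 0.05. From 9 h to 24 h 3 members were called lower (3.31%): Slfn3 by 1.60 ± 0.27, Slfn4 by 1.20 ± 0.34 and Slfn9 by 0.43 ± 0.14. The call of Slfn9 was absent without any 1 of the 24 h arrays or without replicate 1, 2 or 4 of 9 h, and that of Slfn4 without replicate 1 or 3 of 9 h or replicate 4 of 24 h. From 24 h to 72 h Slfn3 and Slfn4 were called lower (1.9%), by 1.16 ± 0.27 and 2.11 ± 0.34, with no overlap between the groups. Slfn5 was called as well without replicate 4 of 24 h or replicate 1 of 72 h, and Slfn8 without replicate 3 of 72 h. From 72 h to 5 days Slfn4 was called lower (2.18%), by 1.40 ± 0.34. That call was absent without replicate 3 of 72 h or replicate 1 or 4 of 5 days, and Slfn8 was called too without replicate 2 of 72 h. The 72 h arrays share no run with those of 24 h or 5 days. In the steps from 24 h to 72 h and to 5 days, run and time therefore cannot be told apart.

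At 3 h the CpG mixture could be set beside the control ODN mixture. Compared with control ODN, 6 of 7 members were called higher after CpG (background 9.23%). Their CpG arrays did not overlap with the control arrays. The share of all genes with such a separation was not computed, so it cannot be weighed. The differences were 3.15 ± 0.27 for Slfn3, 2.98 ± 0.53 for Slfn2, 2.25 ± 0.34 for Slfn4, 2.13 ± 0.26 for Slfn8, 1.75 ± 0.14 for Slfn9 and 1.29 ± 0.26 for Slfn5. Slfn1 differed by 0.07 ± 0.33. With 1 control array left out, Slfn2 kept too few control arrays to be tested unless that array was replicate 4. The control and CpG arrays of 3 h share no run, so run and group cannot be told apart here.

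The control mixture itself went with a higher Slfn4. Its arrays read 1.79, 1.39, 2.19 and 0.60 against -0.76 to 0.58 in untreated spleen, a difference of 1.57 ± 0.31, and Slfn4 was the 1 member called higher (background 2.45%). The call was absent without control ODN replicate 1 or 3, and Slfn2 was called lower too without replicate 4. Slfn2 was low in the same arrays, at 1.39, 1.41 and 0.96 on the 3 arrays with a value, below all untreated arrays, with a difference of -1.45 ± 0.49 that was not called. Within their run, control ODN arrays were lower in Slfn2 than all 14 day arrays, by 1.67, and the groups overlapped in Slfn4. Slfn3, Slfn5, Slfn8 and Slfn9 differed from untreated spleen by 0.30, 0.46, 0.01 and -0.15 under control ODN, none of them called.

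Where runs held several groups, the members could be compared within them. In the run with 1 untreated and 2 CpG 3 h arrays the differences were 4.63 for Slfn4, 3.72 for Slfn3, 2.39 for Slfn8, 1.76 for Slfn5, 1.71 for Slfn9, 0.63 for Slfn2 and -0.27 for Slfn1. With runs as a fixed block, where that 1 untreated array carries the comparison and Slfn2 could not be included, 5 members were called at 3 h, 3 at 9 h and 2 at 24 h. Slfn3 and Slfn4 were called at all 3 times, Slfn9 at 3 h and 9 h, and Slfn5 and Slfn8 at 3 h. The fitted differences of the members that lost a call in this fit were 1.35 and 0.95 for Slfn5 and 1.96 and 1.84 for Slfn8 at 9 h and 24 h, and 1.09 for Slfn9 at 24 h. How many of all genes this fit called at 9 h and 24 h stands in the last section. For 3 h that number is not given here. Within the run of 16 arrays, Slfn9 was higher at 72 h than at 14 days on every array, by 1.08. Slfn3, Slfn4, Slfn2 and Slfn9 were higher at 72 h than at 7 days on every array, by 0.82, 2.02, 0.98 and 0.75.

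The members tracked each other to different degrees. Over the 42 arrays, which share the time course and the reference, Pearson's r between pairs of Slfn3, Slfn4, Slfn5, Slfn8 and Slfn9 ran from 0.76 to 0.87. Slfn1 correlated less with them, from 0.26 with Slfn8 to 0.44 with Slfn4. Slfn2, missing on 1 array, was left out of these pairs.

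The genes with the most alike patterns were read as the 5 highest Pearson r over 42 arrays, passing over clone and predicted names. For Slfn9 they were Phf11d (0.95), Stat2 (0.95), Ifit2, Ifit3 and Wdr43 (0.94), and for Slfn8 Slfn10-ps (0.95), Mx2 (0.94), Phf11a (0.93), Rnf213 and Samd9l (0.92). Slfn3 was most alike to Oasl1 (0.94), Slc52a3, Ncoa1, Ifit3 and Tor3a (0.93), and Slfn4 to Plekha4, Samd9l and Phf11a (0.91), Oasl1 and Ifit2 (0.89). Slfn5 was most alike to Ifit2 and Oasl1 (0.89), Ncoa1, Mmp3 and Ifit3 (0.88). Stat2 transmits the type I interferon signal, and Ifit2, Ifit3, Mx2 and Oasl1 are interferon-stimulated antiviral genes.

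Slfn1 had a different set of neighbours: Insm1 (0.83), Ptpn1 (0.79), Ccl19 (0.78), Madcam1 (0.76) and Lta (0.75). Ccl19 is a chemokine of the T cell zone, Madcam1 an adhesion molecule that lines the marginal sinus of the spleen, and Lta the lymphotoxin needed to form lymphoid tissue. By Spearman's rho the first 3 stayed the most alike to Slfn1. Over the 10 group means Insm1 ranked 2, Ccl19 76, Madcam1 126, Ptpn1 131 and Lta 270. For the other members, some of the 5 genes also ranked lower by Spearman's rho: all 5 of Slfn3 lay between rank 24 and 89, Oasl1 and Ifit2 ranked 67 and 80 for Slfn4, and Ncoa1, Mmp3 and Ifit3 ranked 33, 41 and 50 for Slfn5. Those of Slfn8 and Slfn9 lay within rank 14 and 8.

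Interferon-stimulated genes other than Schlafens gave the background of this response. Of 25 listed, 19 were tested. All 19 were called higher at 3 h and at 9 h, 18 at 24 h, 16 at 72 h and 10 at 5 days, when 2 were called lower. At 14 days and under control ODN 0 were called by limma, and 3 and 5 had an unadjusted p below 0.05. Their median difference was 2.37 at 3 h, 2.25 at 9 h, 1.56 at 24 h, 1.30 at 72 h and 0.45 at 5 days. At 9 h the members of the list with the largest differences were Ifit3 (4.06 ± 0.27), Ifit2 (3.99 ± 0.21), Ifit1 (3.23 ± 0.17) and Bst2 (2.75 ± 0.16), which act against viruses. Ifit1 was still called at 72 h, by 2.30 ± 0.17, and at 7 days, by 0.78 ± 0.17. For the mean of the list, Pearson's r over the arrays was 0.95 with Slfn9, 0.93 with Slfn3, 0.89 with Slfn8, 0.85 with Slfn5, 0.83 with Slfn4, 0.64 with Slfn2 and 0.37 with Slfn1.

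Of 20 listed genes of the interferon receptors and their signalling, 19 were tested, and 11 were called higher at 3 h and 7 at 9 h, with none called lower (background of lower calls at 9 h 3.45%). The largest differences at 9 h were in Usp18 (3.26 ± 0.24), Socs3 (2.14 ± 0.27) and Socs1 (1.82 ± 0.18), which restrain cytokine signalling, and in Stat2 (1.78 ± 0.15). Irf7, which drives interferon transcription, was called higher at 9 h by 1.15 ± 0.23, and Irf9, the DNA-binding partner of STAT2, by 0.75 ± 0.19. Ifnar1, a chain of the type I interferon receptor, was not called, with a difference of -0.31 ± 0.15.

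Of 20 listed genes of the TLR9 pathway, 17 were tested, and 3 were called higher at 9 h: Myd88, its adaptor (1.08 ± 0.19), Irak3, its inhibitor (0.73 ± 0.18), and Tlr9 itself (0.68 ± 0.20). Of 17 listed lymphocyte quiescence genes, 15 were tested, and Tob1 and Btg2, which slow cell division, were called lower at 9 h, by 0.84 ± 0.26 and 0.65 ± 0.17. The list's median difference at 9 h was -0.33.

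The cell cycle genes followed another course. Of 20 listed mitotic genes, 19 were tested. At 9 h 0 were called by limma (4 with an unadjusted p below 0.05), at 72 h 14 were called higher, and at 5 and 7 days 18 were, with median differences of 0.86, 1.26 and 1.32 (background of higher calls at 7 days 8.68%). At 7 days Mki67, a marker of dividing cells, was higher by 2.09 ± 0.41. At 7 days, when Slfn4 was lowest, the mean of the list ran from 0.83 to 1.02, against -0.51 to 0.10 in untreated spleen. At 5 days it ran from 0.80 to 1.04, with Slfn4 not called (-0.38 ± 0.31). Over the 42 arrays the r of the list mean with Slfn4 was -0.71. The other members had a negative r too, from -0.275 for Slfn2 to -0.55 for Slfn8.

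**Figure D4:**
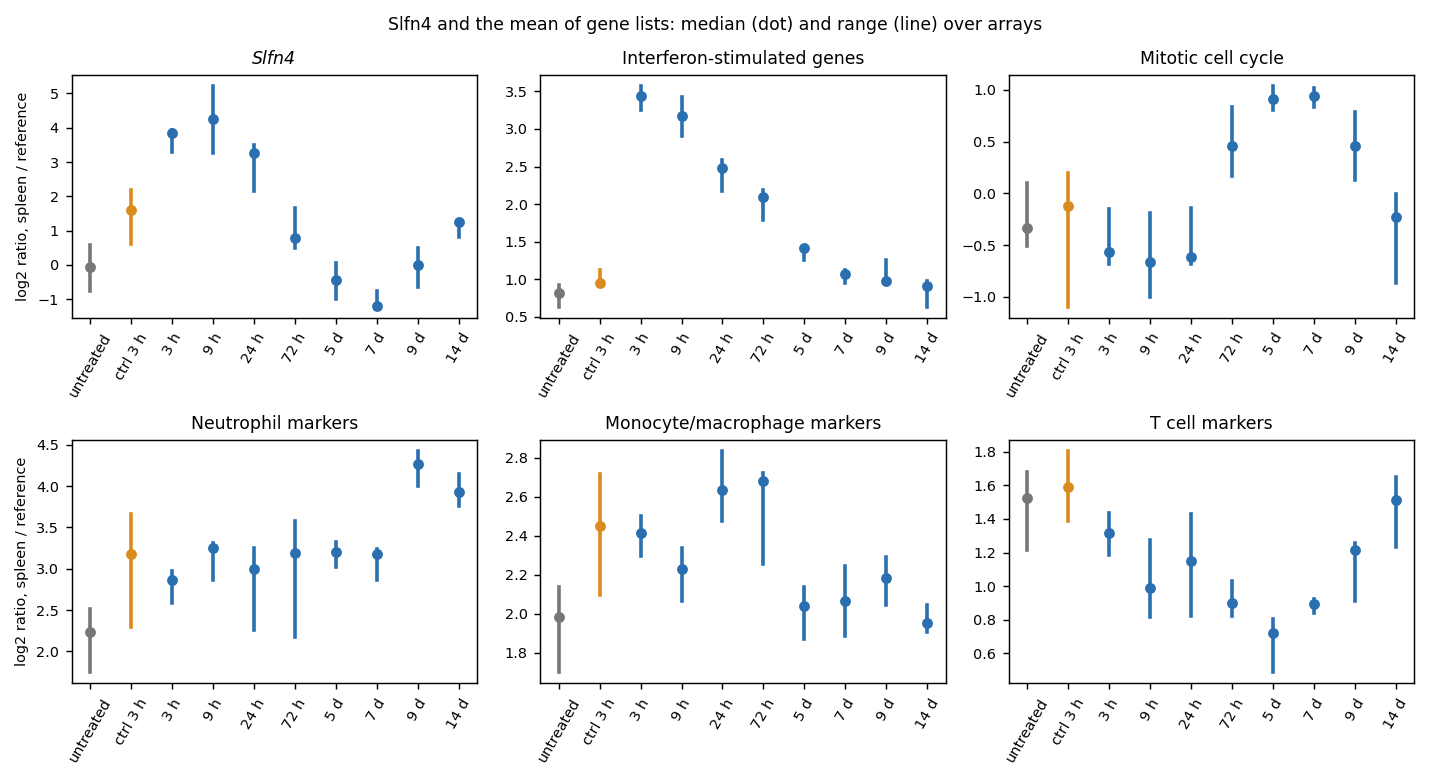
Median (dot) and range (line) over the arrays of each group (x axis) of the log2 ratio (y axis) of Slfn4 and of the mean of 5 gene lists. Slfn4 has its lowest values at 7 days, between -1.23 and -0.75, where the mitotic list lies between 0.83 and 1.02. At 5 days the mitotic list lies between 0.80 and 1.04.

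Markers of other cell types moved along the course, and their part in the members' values was not tested. Of 15 tested neutrophil markers, 5 were called higher at 3 h, 9 h and 24 h, and 12 at 9 days and at 14 days (background of higher calls at 9 days 8.4%). The mean of 12 of them ran from 1.75 to 2.51 in untreated spleen, from 4.01 to 4.43 at 9 days, when Slfn4 was within its untreated range, and from 3.75 to 4.15 at 14 days, when Slfn4 was above it. Under control ODN, where Slfn4 was higher, 3 of these markers were called higher and the mean ran from 2.30 to 3.67. Of 14 tested monocyte and macrophage markers, 4 were called higher and 1 lower at 3 h, and 6 higher and 3 lower at 9 h. At 24 h 6 were called higher, at 72 h 4 and under control ODN 4, with none lower. The mean of 13 of them ran from 1.70 to 2.14 in untreated spleen, from 2.47 to 2.84 at 24 h and from 2.10 to 2.72 under control ODN. Csf1r is not analysed here.

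Of 14 tested T cell markers, 4 were called lower at 9 h and 11 at 5 days (background of lower calls at 5 days 13.4%), when 1 was called higher, with medians of -0.47 and -0.76. Their mean ran from 1.21 to 1.68 in untreated spleen, from 0.82 to 1.28 at 9 h and from 0.49 to 0.81 at 5 days. Cd3e, part of the T cell receptor complex, was lower at 5 days by 1.24 ± 0.17 and at 9 h by 0.46 ± 0.17, the latter not called. Slfn1 and Slfn2 were not called at 5 days, with differences of 0.07 ± 0.30 and -0.44 ± 0.45.

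At 9 h, 2 of 11 tested B cell markers and 1 of 5 plasma cell markers were called lower, and 2 of 11 natural killer and cytotoxic cell markers higher. Of 11 tested dendritic cell markers, 2 were called higher and 2 lower. Of 11 erythroid, 6 megakaryocyte and platelet and 10 pancreas acinar markers, 0 were called by limma, and 0 had an unadjusted p below 0.05. Of 11 endothelial cell and fibroblast markers, 2 were called lower. With the mean of the pancreas markers as a covariate, Slfn8 was called higher at 72 h (0.75), where it was not called without it. The part of pancreas tissue in the members' values was not tested. The covariate was added after the data were seen, and the share of all genes called with it is not given here.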

How the data were processed

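The deposited matrix holds log2 ratios of spleen over reference, made by the authors, with 30601 features and 42 arrays. Normalization, spot filter and log base were not stated in the material used. Values between -6.86 and 9.78 pointed to base 2, and high spleen genes to the direction. Array medians ran from -0.014 to 0.019. The array's annotation gave 1 symbol to 23485 features, several to 179 and none to 6937. Features sharing a symbol were averaged. Array number limits the precision.

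All arrays entered 1 linear model in limma (version 3.58.1, R 4.3.3), and groups were contrasted 2-sided where at least 3 arrays of both had a value. Calls were made at a Benjamini-Hochberg adjusted p below 0.05 over all genes, and the code was checked on simulated data. The ± after a difference is the SE of the fit. The members and gene lists were chosen with earlier results of these data known. Named genes were the members, other Slfn genes, the 5 most alike genes per member, up to 4 called genes per pathway list with the largest differences at 9 h, and a few fixed genes.

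Alternatives covered centring, scaling, filters, features, spread, weights, thresholds, blocks and left-out arrays, and a pancreas covariate chosen after seeing the data. Same-numbered arrays of other groups correlated by 0.041 on average, and other-numbered ones by -0.012. These values do not settle whether the numbers pair arrays. Promoters were aligned with Biopython 1.88. Protein sequences and probe sequences were not used here.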

Additional observations from a re-analysis of the deposited data

Results flagged for a closer look

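Among 69 groups of 4 or 6 arrays of the members, 3 held an array that stood apart from the others by Dixon's criterion, which chance alone gives for about 1 in 20 groups. Slfn4 at 7 days read -0.75 on replicate 2, against -1.23 to -1.17 on the other arrays. Slfn4 at 14 days read 0.81 on replicate 1, against 1.24 to 1.31. Slfn9 at 24 h read 0.97 on replicate 4, against 1.31 to 1.38. Leaving out replicate 2 of 7 days or replicate 1 of 14 days kept the calls of Slfn4, and Slfn9 stayed called against untreated spleen without replicate 4 of 24 h.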

How the results depend on the processing

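Leaving out 1 array at a time gave 5 to 6 members called at 3 h, 5 to 6 at 9 h, 5 at 24 h, 2 to 4 at 72 h, 1 at 5 days, 0 to 1 at 7 days, 0 to 1 at 9 days, 0 to 2 at 14 days and 0 to 2 for control ODN, all against untreated. It gave 5 to 6 for CpG against control ODN, 0 for 9 h against 3 h, 1 to 2 for 24 h against 9 h, 2 to 3 for 72 h against 24 h and 0 to 2 for 5 days against 72 h. No member called in a comparison turned its direction under any alternative read per gene. Single features were not included in that check. At 9 days feature 3 of Slfn9 was 0.10 above untreated spleen, while the gene was called lower.

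With runs as a fixed block, 3 members were called at 9 h and 2 at 24 h, and 142 and 133 genes in all against 1289 and 1656. The fixed block fit held the 12588 genes with a value on every array. Runs as a random block gave 0 at 9 days. Whether the numbers in the labels pair arrays is not known. A replicate block gave 1 member at 72 h, 0 at 5 days and 0 at 9 days. Its differences at 72 h were 0.76 for Slfn3 and 0.95 for Slfn4. It also ended the calls of Slfn2 at 9 h (1.44) and of Slfn9 from 9 h to 24 h (-0.43). At an adjusted p below 0.01, 0 members were called at 7, 9 and 14 days, 1 for 24 h against 9 h and 0 for 5 days against 72 h. Requiring also a difference of at least 1 left 1 at 72 h, 0 at 5 days, 0 at 9 days and 1 at 14 days. Array weights gave 5 at 72 h, adding Slfn1 and Slfn5, when 5794 genes of all were called against 2267 in the design used. They gave 2 at 5 days, 2 at 9 days, 4 for 72 h against 24 h and 2 for 5 days against 72 h. Fitting only the 2 groups compared gave 2 at 9 days, 0 for control ODN, 1 for 24 h against 9 h and 0 for 5 days against 72 h, and called 0 genes of all for control ODN. Scaling to 1 median absolute deviation gave 2 at 9 days, 1 at 14 days and 3 for 5 days against 72 h. Quantile normalization gave 2 at 9 days, 4 for 72 h against 24 h and 2 for 5 days against 72 h. Single features gave 2 at 5 days, 2 at 7 days and 2 for 5 days against 72 h. At 9 days the median over features gave 0, and so did a trended, robust spread. Leaving out the 8 arrays with over 1000 features missing gave 0 at 9 days, 0 at 14 days and 0 for 5 days against 72 h. Counts over all genes moved by over 1.5 times under several settings, among them control ODN, with 531 called in the design used, 28 with the replicate block and 0 with only 2 groups, 72 h, with 2267 and 5794 under array weights, and 14 days, with 681 and 82 without the 8 arrays. The causes were not tested. Member counts in this section that stand without a count of all genes cannot be set against the share of all genes called. Signal over background was not used here.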
